A study of Homo sapiens with 18 samples.

Results

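ABC transporters are membrane proteins that bind and hydrolyse ATP to move a substrate across a membrane, and 2 of the subfamilies described here, E and F, lack the membrane part and act on ribosomes. The 46 genes of the count table with an ABC symbol of subfamilies A to G and a number were taken as members, out of 28277 genes listed. ABC symbols with a suffix after the number, as used for pseudogenes and antisense genes, were left out. Subfamily A had 12 members, B 9, C 12, D 4, E 1, F 3 and G 5. The transporters were of interest here because the side population assay, by which stem-like cells of these lines were counted, reads the efflux of a dye through ABC pumps.

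The data were RNA-seq of OVCAR3-KRAB, the established ovarian cancer cell line OVCAR3 made to express dCas9-KRAB, a nuclease-dead Cas9 fused to a repressor domain, so all groups carry the repressor. Clonal cells held a control sgRNA (sgControl in the labels, written sgCtl here) or an sgRNA against a long noncoding RNA (sgXIST7 or sgXIST9), and were kept in normoxia or placed for 24 h in a chamber at 1% oxygen, with 3 replicates in each of the 6 groups. Each sgRNA was studied in clonal cells, and how many clones stand behind a group was not stated, so what belongs to a clone and what belongs to the KD cannot be told apart. The study calls its RNA-seq replicates biological, but whether they were separate cultures of 1 clone or separate clones was not stated, and the p-values measure the spread between these libraries only.

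Total counts ranged from 11794375 to 24906936 per library (median 17629434). The lncRNA targeted by the sgRNAs was at 0.0335% of its sgCtl level in sgXIST7 and 9.39% in sgXIST9 in normoxia, and at 0.0682% and 13.6% in hypoxia. The library of replicate 3 agreed least with its own group in each hypoxia group (mean Pearson r of 0.959 in sgCtl, 0.979 in sgXIST7 and 0.974 in sgXIST9 across genes, against 0.985 to 0.993 for the normoxia libraries). Of the calls described below, leaving out these 3 libraries together ended 1 (ABCC3 in sgXIST9 in hypoxia) and added others, which are given beside the genes. Of 9 epithelial markers, 4 to 6 were detected in a group, with group means of 159.9 to 243 CPM (counts scaled to library size with TMM normalisation) for EPCAM, while CDH1, KRT7 and MUC16, which mark many ovarian carcinoma cells, had at most 4 counts in any library. The 5 immune markers summed to 11.4 to 56.0 CPM, most of it CD68, which fell in hypoxia in sgXIST9 (log2 -1.35), while PTPRC had at most 1 count. The 4 endothelial markers together reached at most 0.684 CPM. The 6 fibroblast markers summed to 940.5 to 986 CPM in sgCtl, 1017 to 1099 in sgXIST7 and 606 to 658 in sgXIST9 in normoxia, and to 747 to 1031, 749 to 1008 and 373 to 670.5 CPM in hypoxia. COL3A1 made up most of that sum. Its means in sgCtl, sgXIST7 and sgXIST9 were 950.7, 1018 and 600.8 CPM in normoxia, and 851.8, 895.5 and 522.8 CPM in hypoxia. It was thus lower in sgXIST9 than in sgCtl, but did not pass against sgCtl. COL1A1, with group means of only 0.163 to 5.21 CPM, was up-regulated in both KD clones at both oxygen levels. DCN was lower in both KD clones in hypoxia (1.56 CPM in sgCtl, 0.0447 in sgXIST7 and 0.0993 in sgXIST9). Of the 4 epithelial markers tested, KRT8 was up-regulated in both KD clones at both oxygen levels (log2 1.92 and 1.89 in normoxia, 2.56 and 2.14 in hypoxia). The other epithelial markers tested did not pass in these comparisons. The part of these genes in the results below was not tested.

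All 46 members had a count in at least 1 library, but only 29 had enough counts to be tested. A gene was taken as detected in a group when at least 1 of its 3 libraries held more than 3 counts, and by this limit 27 members were detected in all 6 groups, 6 in some groups and 13 in none. Among the 17 members that were not tested were the bile salt and phospholipid pumps ABCB11 and ABCB4, the sterol half-transporters ABCG5 and ABCG8, and ABCC8 and ABCC9, the sulfonylurea receptors that regulate potassium channels. None of these 6 had more than 2 counts in any library. ABCA4, ABCA8, ABCA12, ABCB1, ABCB5, ABCC13 and ABCG2 had at most 3 counts in a library, ABCC12 at most 6, ABCA9 at most 14, ABCA6 at most 21 and ABCF1 at most 32.

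The most abundant members were not drug pumps. By mean RPKM, the CPM divided by exon length in kilobases, over the 18 libraries, ABCE1, which recycles ribosomes after termination, came first at 54.2, above 93.1% of the genes tested. ABCB6, a half-transporter linked to porphyrin transport, followed at 34.1, and ABCF3, a ribosome-associated ATPase, at 22.8. Further abundant members were the peroxisomal fatty acid importer ABCD3 at 14.0, the mitochondrial transporter ABCB10 at 12.7, the lamellar body lipid transporter ABCA3 at 12.5, ABCA2 at 9.97, ABCA7 at 7.21 and ABCF2 at 7.05. A group of 10 tested members, among them ABCG1, ABCA1, ABCC3 and ABCA13, stayed below 1 RPKM on this mean, and most of the large fold changes described below were in these low genes.

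**Figure D1:**
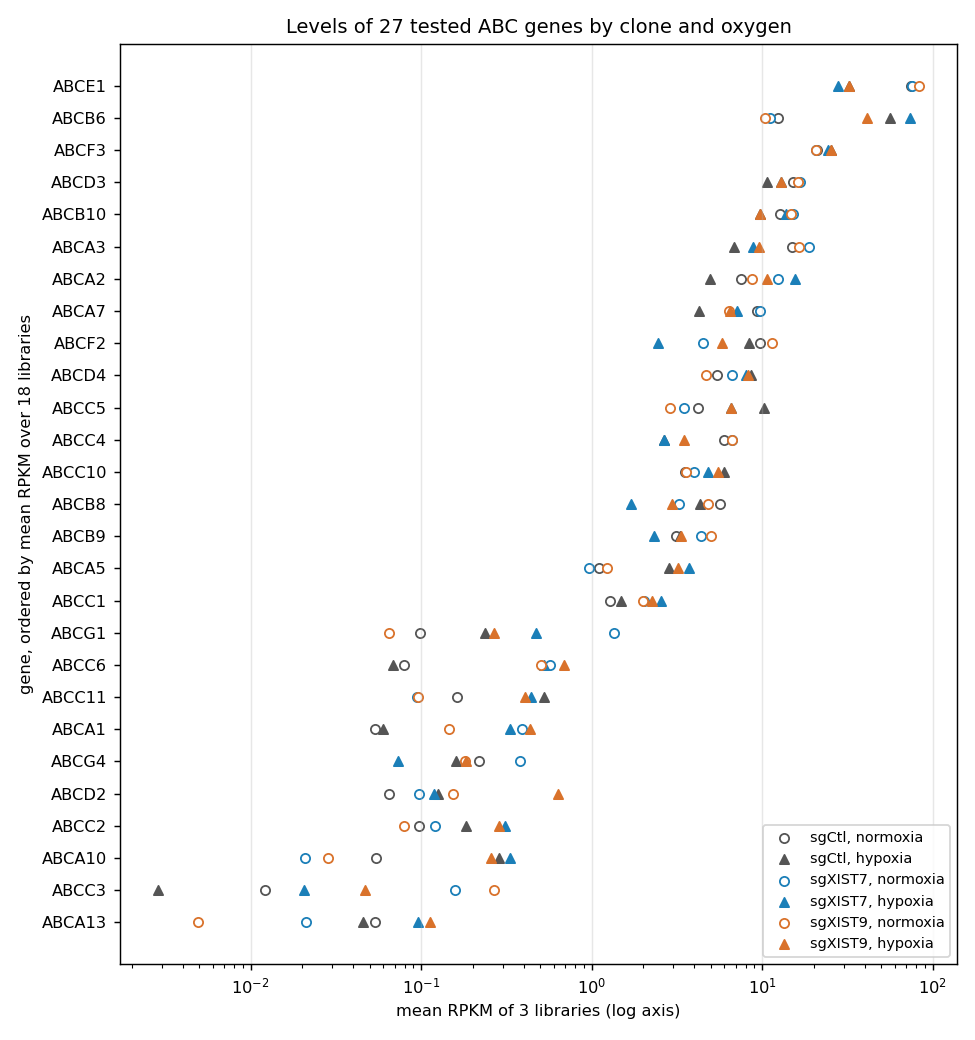
Mean RPKM of the 3 libraries of each group (log axis) for 27 of the 29 tested ABC genes, ordered by their mean over 18 libraries. Circles are normoxia and triangles hypoxia, with a colour for each clone. ABCE1 and ABCB6 lead, and the 10 genes at the bottom lie below 1 RPKM on their mean over all libraries.

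The 3 pumps usually named for dye efflux were near or below detection, apart from ABCC1. ABCB1 (P-glycoprotein) had 6 counts in all 18 libraries together and at most 2 in a single library. ABCG2 (the breast cancer resistance protein), which exports the Hoechst dye, had 4 counts in all, and at most 2 in a single library. Summed over all libraries this is 0.0182 CPM for ABCB1 (95% exact Poisson interval 0.00668 to 0.0396) and 0.0121 CPM for ABCG2 (0.00331 to 0.0311). The 0 counts of sgXIST9 allow up to 0.0632 CPM of either gene in normoxia and 0.0617 CPM in hypoxia by the same interval, and these intervals cover counting error only. A difference of ABCB1 or ABCG2 between clones or oxygen levels was not detectable at this depth, and with no filter on low counts the smallest adjusted p over the 11 comparisons (edgeR) was 0.4 for ABCB1 and 0.35 for ABCG2.

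ABCC1, the multidrug resistance-associated protein 1 that exports glutathione conjugates, was measured in each library. Its counts in normoxia were 136, 117 and 116 in sgCtl, 331, 235 and 278 in sgXIST7, and 290, 224 and 243 in sgXIST9. In hypoxia they were 140, 204 and 113 in sgCtl, 231, 372 and 253 in sgXIST7, and 333, 247 and 277 in sgXIST9. Scaled to CPM, each library of either KD clone was above each sgCtl library at the same oxygen level. The levels were 8.28 ± 1.40 CPM in sgCtl, 13.2 ± 1.10 in sgXIST7 and 13.0 ± 1.15 in sgXIST9 in normoxia (SD, n = 3). The fold change was 1.59 for sgXIST7 and 1.58 for sgXIST9 in normoxia (log2 0.67 and 0.66, adjusted p = 0.035 and 0.04, edgeR), and 1.71 and 1.52 in hypoxia (log2 0.78 and 0.60, adjusted p = 0.0088 and 0.045). None of these passed both limits used here, a log2 fold change beyond 1 in either direction and an adjusted p under 0.01. Hypoxia gave log2 values of 0.22, 0.32 and 0.17 in sgCtl, sgXIST7 and sgXIST9, with adjusted p of 0.42, 0.2 and 0.53. Only 3.93% of the 50-base windows of ABCC1 exons occur once in the genome when the alternate contigs are included, against 100% on the main chromosomes. How reads with several alignments were counted was not stated, and its part in the level of ABCC1 was not tested.

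KD clones against sgCtl were compared first in normoxia. In sgXIST7, 5 of 29 tested members passed (17.2%, against 7.76% of all genes tested), 4 up-regulated and 1 down-regulated (4.67% and 3.09% of all genes). In sgXIST9, 3 of 29 passed (10.3%, against 7.70%), 2 up and 1 down (3.93% and 3.77% of all genes). In hypoxia 5 passed in sgXIST7 (17.2%, against 14.0%), 3 up and 2 down (7.83% and 6.19% of all genes). In sgXIST9, 4 passed in hypoxia (13.8%, against 9.53%), and these 4 were up-regulated (6.14% of all genes were higher and 3.39% lower). The median log2 fold change of the tested members was 0.17 and 0.10 in normoxia and 0.26 and 0.19 in hypoxia for sgXIST7 and sgXIST9, where the median of all genes was between -0.02 and -0.01. These 4 comparisons share their sgCtl libraries within an oxygen level, so that a low or high sgCtl value enters both clones, and their values are given side by side.

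ABCC6, a liver and kidney transporter of the C subfamily that is mutated in pseudoxanthoma elasticum, was up-regulated in both clones at both oxygen levels. In normoxia its counts were 14, 2 and 4 in sgCtl, 68, 61 and 74 in sgXIST7 and 57, 48 and 57 in sgXIST9. In hypoxia they were 7, 7 and 4 in sgCtl, 55, 76 and 31 in sgXIST7 and 112, 88 and 39 in sgXIST9. No KD library overlapped with sgCtl, and sgCtl replicate 1 in normoxia was the highest of the control. ABCC6 passed the filter on low counts only through the KD clones, the groups in which it was high. The log2 fold change was 2.83 (SE 0.43, adjusted p = 9.8e-05) in sgXIST7 and 2.64 (SE 0.43, adjusted p = 0.0002) in sgXIST9 in normoxia, and 2.92 (adjusted p = 6.4e-05) and 3.33 (adjusted p = 1.9e-05) in hypoxia. Without sgCtl replicate 1 in normoxia the first pair was 3.97 and 3.79. ABCC6 lies on chr16:16149565-16223471 of hg38, on the minus strand, 6.51 kb beyond the end of ABCC1, and its reads are shared with near-identical copies. Only 78.2% of its 50-base exon windows occur once on the main chromosomes and 5.69% with alternate contigs, so the counts are uncertain. The pseudogene ABCC6P1, on the same chromosome, had 8, 10 and 7 counts in sgCtl in normoxia and 128, 79 and 116 in sgXIST7, and which of the copies the ABCC6 reads came from cannot be told apart.

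ABCC3, an organic anion exporter of the basolateral membrane of liver and gut, was nearly absent from sgCtl. Its mean was 0.918 CPM in sgXIST7 and 1.54 CPM in sgXIST9 in normoxia, and at most 0.272 CPM in any other group. It passed the filter on low counts only through the KD clones in normoxia, the groups in which it was high. Its counts in normoxia were 0, 2 and 1 in sgCtl, 24, 16 and 19 in sgXIST7, and 32, 35 and 23 in sgXIST9. Both KD clones were above sgCtl in each library. The summed counts gave a ratio of 13.9 for sgXIST7 (95% counting interval 4.53 to 69.3) and 23.3 for sgXIST9 (7.71 to 114.9), and the fitted log2 fold changes were 3.65 (adjusted p = 0.00018) and 4.40 (adjusted p = 1.6e-05). Without sgCtl replicate 2 they were 4.62 and 5.37. In hypoxia the counts were 0, 1 and 0 in sgCtl, 1, 3 and 2 in sgXIST7, and 4, 7 and 5 in sgXIST9. The sgXIST9 libraries had a ratio of 12.7 to sgCtl (1.97 to 532.1, adjusted p = 0.0063), a call that was lost with DESeq2 (adjusted p = 0.025) and without the hypoxia replicate 3 libraries (log2 2.91, adjusted p = 0.028). It was also lost without sgCtl replicate 1 or 3 or sgXIST9 replicate 2 or 3 in hypoxia (log2 2.85 to 3.21, adjusted p 0.014 to 0.033), and sgCtl replicate 2 was the single control library with a count. In sgXIST7 the log2 value was 2.09 with adjusted p = 0.13.

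The cholesterol exporters ABCA1 and ABCG1 load sterol onto lipid-poor and mature lipoprotein particles, respectively, and differed in their pattern over the clones. ABCA1 had 11, 9 and 4 counts in sgCtl, 78, 115 and 54 in sgXIST7 and 42, 20 and 28 in sgXIST9 in normoxia. In hypoxia the counts were 9, 12 and 8 in sgCtl, 107, 81 and 18 in sgXIST7 and 131, 102 and 48 in sgXIST9. On the CPM scale the KD libraries lay above the sgCtl libraries throughout. The log2 fold change was 2.88 (SE 0.51, adjusted p = 0.00046) in sgXIST7 in normoxia, and 2.50 (adjusted p = 0.00082) and 2.88 (adjusted p = 0.00031) in sgXIST7 and sgXIST9 in hypoxia. In sgXIST9 in normoxia it was 1.49 with adjusted p = 0.055.

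ABCG1 was up-regulated in sgXIST7 in normoxia only among these 4 comparisons. Its counts in normoxia were 5, 5 and 6 in sgCtl, 101, 116 and 87 in sgXIST7 and 3, 3 and 7 in sgXIST9, so that sgXIST7 stood apart from both of the others. Its log2 fold change was 3.75 (SE 0.65, adjusted p = 0.00037) against sgCtl and 4.38 (SE 0.67, adjusted p = 0.00026) against sgXIST9, and the latter was 4.99 without sgXIST9 replicate 3. In hypoxia the counts were 24, 21 and 0 in sgCtl, 41, 45 and 13 in sgXIST7 and 30, 25 and 6 in sgXIST9, and replicate 3 was the lowest of each group. The log2 values against sgCtl were 0.95 in sgXIST7 (adjusted p = 0.2) and 0.13 in sgXIST9 (adjusted p = 0.89).

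Single comparisons called 3 further members up or down. ABCA2, a lipid transporter of endosomes and lysosomes, was at 27.4, 23.7 and 72.8 CPM in sgCtl and at 85.6, 130.9 and 173 CPM in sgXIST7 in hypoxia. Its log2 fold change was 1.66 (SE 0.40, adjusted p = 0.0032), and the highest sgCtl value was that of replicate 3. The call was lost without sgCtl replicate 1 (1.43, adjusted p = 0.022) or 2 (1.38, adjusted p = 0.023) or sgXIST7 replicate 3 (1.40, adjusted p = 0.018), and the value was 2.34 without sgCtl replicate 3. Without the hypoxia replicate 3 libraries, ABCA2 was also called in sgXIST9 in hypoxia (1.39, adjusted p = 0.0058) and as lower in hypoxia in sgCtl (-1.29, adjusted p = 0.0037). In normoxia ABCA2 was at 61.6, 76.5 and 49.7 CPM in sgCtl and 75.7, 147.9 and 84.1 CPM in sgXIST7, and those groups overlapped.

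ABCD2, a peroxisomal importer of very-long-chain fatty acids, was up-regulated in sgXIST9 in hypoxia. Its hypoxia counts were 17, 21 and 3 in sgCtl, 29, 11 and 4 in sgXIST7 and 105, 136 and 16 in sgXIST9. The value rests on replicates 1 and 2 of sgXIST9, since replicate 3 was at 1.01 CPM, below replicates 1 (1.06 CPM) and 2 (1.04 CPM) of sgCtl. The log2 fold change was 2.28 (SE 0.57, adjusted p = 0.0057) against sgCtl and the log2 fold change of sgXIST7 against sgXIST9 was -2.37 (adjusted p = 0.0078). The first was lost on leaving out any of sgCtl replicates 1, 2 and 3 or sgXIST9 replicates 1 and 2 in hypoxia (log2 1.82 to 2.51, adjusted p 0.014 to 0.03). The second was near the limit, with an adjusted p of 0.01 to 0.052 on leaving out any 1 of 14 libraries, among them sgXIST7 replicates 2 and 3 and sgXIST9 replicates 1 and 2 in hypoxia (log2 -2.22 to -1.91), and it was -3.19 without sgXIST7 replicate 1 in hypoxia. In normoxia the counts were 6, 4 and 9 in sgCtl, 13, 14 and 11 in sgXIST7 and 25, 19 and 13 in sgXIST9.

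ABCA13, a very large subfamily A lipid transporter, was down-regulated in sgXIST9 in normoxia. Its normoxia counts were 13, 14 and 14 in sgCtl, 6, 7 and 10 in sgXIST7 and 2, 2 and 1 in sgXIST9. The sgCtl libraries were the highest and those of sgXIST9 the lowest, with no overlap. The summed counts were 10.6 times lower in sgXIST9 than in sgCtl after scaling (95% counting interval 4.18 to 34.3), the fitted log2 fold change was -3.32 (SE 0.79, adjusted p = 0.0055), and the adjusted p rose to between 0.013 and 0.026 on leaving out any of the 6 libraries. In sgXIST7 the log2 value was -1.33 with adjusted p = 0.15. In hypoxia the log2 values against sgCtl were 1.13 in sgXIST7 and 1.36 in sgXIST9, and without the replicate 3 libraries they were 1.87 (adjusted p = 0.0019) and 2.28 (adjusted p = 0.0005).

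**Figure D2:**
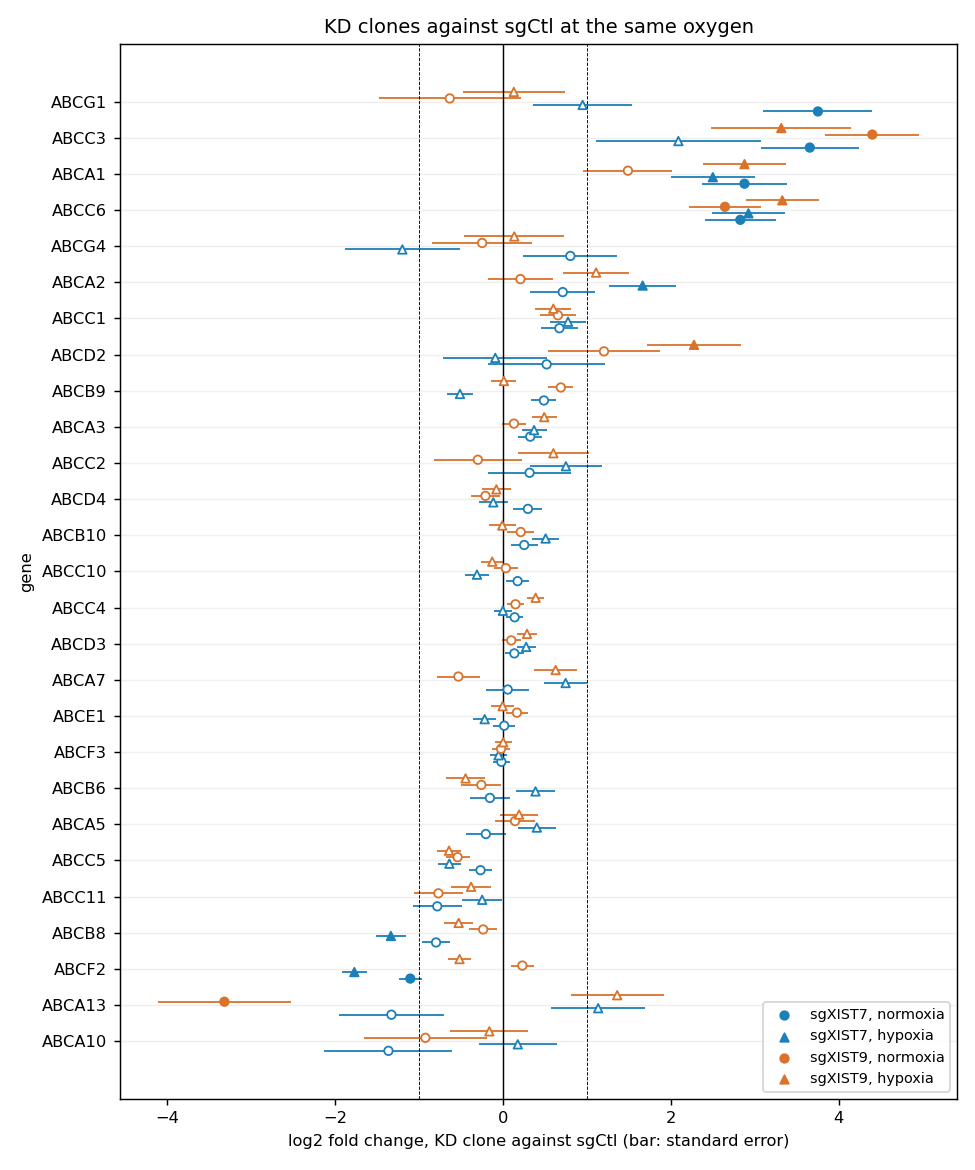
Log2 fold change of each KD clone against sgCtl for 27 of the 29 tested ABC genes, in normoxia (circles) and hypoxia (triangles), with the standard error as a bar. Filled symbols passed both limits (adjusted p under 0.01, and log2 beyond the dashed lines at 1 and -1). ABCC6 is filled in each of the 4 comparisons, and ABCF2 and ABCB8 are filled on the left for sgXIST7 only.

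The members that fell in sgXIST7 were neighbours on chromosome 7. ABCF2, a ribosome-associated ATPase at chr7:151211484-151227205 on the minus strand, and ABCB8, the mitochondrial potassium channel subunit at chr7:151028422-151047782 on the plus strand, lie 163.7 kb apart. ABCF2 was at 45.5, 39.2 and 47.4 CPM in sgCtl, 22.4, 16.4 and 22.6 CPM in sgXIST7 and 50.4, 52.5 and 52.2 CPM in sgXIST9 in normoxia. In hypoxia it was at 41.3, 41.0 and 30.9 CPM in sgCtl, 11.6, 9.92 and 11.8 CPM in sgXIST7 and 25.0, 28.4 and 25.8 CPM in sgXIST9. The sgXIST7 libraries were the lowest at each oxygen level. Against sgCtl, sgXIST7 gave a log2 fold change of -1.10 (SE 0.14, adjusted p = 1.7e-05) in normoxia and -1.77 (SE 0.15, adjusted p = 1.1e-07) in hypoxia. Against sgXIST9 it was -1.33 (adjusted p = 4.3e-06) and -1.25 (adjusted p = 1.2e-05). Without sgXIST7 replicate 2 in normoxia the first value was -0.97, just short of the fold limit (adjusted p = 0.00011).

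ABCB8 was at 27.2, 29.2 and 23.9 CPM in sgCtl and 13.5, 18.4 and 14.3 CPM in sgXIST7 in normoxia, and at 17.3, 16.9 and 26.8 CPM against 7.69, 8.29 and 8.12 CPM in hypoxia. The groups did not overlap, and the log2 fold change was -0.80 (adjusted p = 0.002, short of the fold limit) and -1.33 (adjusted p = 1.7e-05). In sgXIST9 ABCB8 was at 23.4, 24.6 and 20.1 CPM in normoxia and 14.3, 14.4 and 13.4 CPM in hypoxia. The log2 values of sgXIST9 against sgCtl were -0.24 and -0.53.

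Other genes of this end of the chromosome were low in sgXIST7 as well. Among the 59 tested genes within 5 Mb of either member, the median log2 fold change of sgXIST7 against sgCtl was -0.84 in normoxia and -0.88 in hypoxia, while that of sgXIST9 was 0.03 and 0.18. From position 130018286 on, 136 genes had a median of -0.90 in sgXIST7 in normoxia, and 90.4% of them were below 0. The 556 genes that start at or before position 124822386 had a median of 0.06, and 43.7% of them were below 0. They were not even along the chromosome. The 63 genes from 70 to 80 Mb had a median against sgCtl of 0.89 in sgXIST7 and 0.77 in sgXIST9 in normoxia. In hypoxia these medians were 0.88 and 0.77. Against sgXIST9, the 136 genes had a median of -0.93 in normoxia and -1.07 in hypoxia, with 91.2% and 94.1% below 0. For no other called member did the genes within 5 Mb have a median beyond 0.5 in either direction in any of the 11 comparisons. Whether the low values of ABCF2 and ABCB8 belong to the gene or to the whole stretch was not tested.

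**Figure D3:**
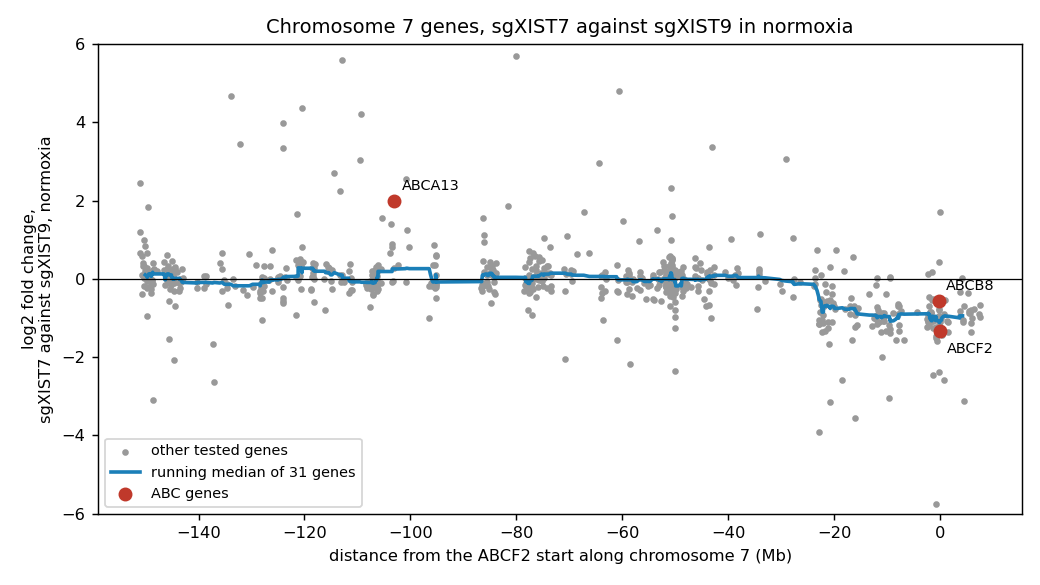
Log2 fold change of sgXIST7 against sgXIST9 in normoxia for 721 tested genes of chromosome 7, against the distance of each gene from the start of ABCF2 in Mb. The line is a running median of 31 genes and large points are ABC genes. The running median lies near 0 over most of the chromosome and near -0.93 at its end, where ABCB8 and ABCF2 lie.

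The KD clones were then compared with each other. In normoxia 2 of 29 members passed (6.9%, against 3.40% of all genes), ABCG1 higher and ABCF2 lower in sgXIST7 (2.09% and 1.31% of all genes were higher and lower). In hypoxia 2 passed (6.9%, against 4.46%), ABCD2 and ABCF2, both lower in sgXIST7 (2.06% of all genes were higher and 2.40% lower). ABCC6, ABCC3 and ABCA1, which were up-regulated in both clones in at least 1 oxygen level, did not pass between the clones, with log2 values of -0.74 for ABCC3 (SE 0.36, adjusted p = 0.25) and 1.39 for ABCA1 (SE 0.44, adjusted p = 0.059) in normoxia.

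More members passed between hypoxia and normoxia than between clones, as did more of all genes. Hypoxia against normoxia gave 10 of 29 members in sgCtl (34.5%, against 19.7% of all genes tested), 6 up and 4 down (11.3% and 8.49% of all genes). It gave 10 in sgXIST7 (34.5%, against 27.3%), 5 up and 5 down (15.1% and 12.2% of all genes), and 12 in sgXIST9 (41.4%, against 23.3%), 10 up and 2 down (14.7% and 8.58% of all genes). Of 10 genes known to be induced by hypoxia, such as VEGFA and SLC2A1, 8, 9 and 9 were up-regulated in the 3 clones. The median log2 fold change of the tested members was 0.08, -0.12 and 0.29, beside 0.02, 0.01 and 0.09 over all genes. Because the cells were lysed in bulk, fewer cells with a transcript and less transcript per cell cannot be told apart.

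The promoters of the 4 members that rose in each clone and of ABCE1, which fell in each, are shown because hypoxia-inducible factors bind a short core. The core searched was ACGTG or GCGTG, on both strands (so also CACGT or CACGC), in the window from 250 bases before to 50 bases after a gene's start in RefSeq, on GRCh38.p14. Cores are in capitals, and overlapping ones form a single run. ABCB6 is on chr2:219218909-219219208, ABCA5 on chr17:69327084-69327383, ABCC11 on chr16:48247490-48247789 and ABCA10 on chr17:69244799-69245098, all on the minus strand, and ABCE1 is on chr4:145098061-145098360 on the plus strand. Each is printed from 5′ to 3′.
ABCB6: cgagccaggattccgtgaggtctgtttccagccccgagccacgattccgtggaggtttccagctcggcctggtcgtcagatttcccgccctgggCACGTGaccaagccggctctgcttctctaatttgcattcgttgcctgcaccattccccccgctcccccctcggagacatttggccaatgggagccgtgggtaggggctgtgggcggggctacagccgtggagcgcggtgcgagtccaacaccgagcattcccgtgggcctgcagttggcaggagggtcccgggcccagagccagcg
ABCA5: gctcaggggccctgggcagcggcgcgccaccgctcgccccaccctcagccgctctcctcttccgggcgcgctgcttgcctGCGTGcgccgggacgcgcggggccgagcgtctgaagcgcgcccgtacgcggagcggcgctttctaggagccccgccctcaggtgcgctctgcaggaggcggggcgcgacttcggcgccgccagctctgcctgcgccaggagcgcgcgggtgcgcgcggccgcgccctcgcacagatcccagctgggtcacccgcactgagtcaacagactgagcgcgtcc
ABCC11: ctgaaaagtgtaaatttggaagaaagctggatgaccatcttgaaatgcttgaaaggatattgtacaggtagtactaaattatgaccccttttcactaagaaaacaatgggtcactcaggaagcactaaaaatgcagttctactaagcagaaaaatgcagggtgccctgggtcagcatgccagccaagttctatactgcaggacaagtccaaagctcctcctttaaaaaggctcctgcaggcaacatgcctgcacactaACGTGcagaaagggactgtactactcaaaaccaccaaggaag
ABCA10: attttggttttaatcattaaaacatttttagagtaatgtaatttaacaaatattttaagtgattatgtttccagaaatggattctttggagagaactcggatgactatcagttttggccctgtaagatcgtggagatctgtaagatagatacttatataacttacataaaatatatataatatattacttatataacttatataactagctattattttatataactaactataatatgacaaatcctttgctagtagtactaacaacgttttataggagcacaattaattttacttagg
ABCE1: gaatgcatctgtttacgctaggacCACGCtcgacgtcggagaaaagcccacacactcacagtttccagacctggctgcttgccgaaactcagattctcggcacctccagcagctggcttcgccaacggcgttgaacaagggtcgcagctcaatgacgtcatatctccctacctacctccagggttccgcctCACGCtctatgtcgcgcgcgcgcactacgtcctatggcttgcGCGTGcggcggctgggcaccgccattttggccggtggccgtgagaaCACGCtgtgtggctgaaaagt

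With the first base of the gene counted as 0, the core lay at -156 in ABCB6, -170 in ABCA5 and 8 in ABCC11, the window of ABCA10 held none, and ABCE1 held 4, at -226, -59, -17 and 29. The core is common, as 17012 of 35116 RefSeq windows of this length held it (48.4%). It was in 21 of the 35 members with an entry (60.0%) and in 3 of the 4 members that rose in each clone (75.0%). It was in 5 of 9 with an entry that rose in at least 1 clone (55.6%). Of members that fell in at least 1 clone, 4 of 5 with an entry held it (80.0%), and ABCC3 had no entry. A match is a description of the letters and not evidence of binding.

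ABCB6, ABCA5, ABCA10 and ABCC11 were up-regulated in each of the 3 clones. ABCB6, on chr2:219209772-219218958, was at 38.5, 37.0 and 34.8 CPM in sgCtl, 32.0, 31.3 and 35.7 CPM in sgXIST7 and 30.3, 30.1 and 31.9 CPM in sgXIST9 in normoxia. In hypoxia it reached 140.9, 110.2 and 251 CPM in sgCtl, 175, 210.5 and 271 CPM in sgXIST7 and 115, 98.5 and 155 CPM in sgXIST9. Each hypoxia library was above each normoxia library, and replicate 3 was the highest in each hypoxia group. The fold change was 4.55 in sgCtl, 6.62 in sgXIST7 and 3.99 in sgXIST9 (adjusted p = 1.7e-06, 8.9e-08 and 3.1e-06).

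ABCA5 and ABCA10 are neighbours in the cluster of cholesterol-responsive subfamily A genes on chromosome 17, both on the minus strand, and their annotated ends overlap by 505 bases. ABCA5, a lysosomal transporter, was at 9.06, 12.8 and 9.59 CPM in sgCtl in normoxia and 23.4, 23.4 and 33.3 CPM in hypoxia. It was at 6.62, 11.6 and 9.19 CPM against 24.9, 39.1 and 42.0 CPM in sgXIST7, and 11.2, 10.2 and 13.4 CPM against 32.6, 24.2 and 34.5 CPM in sgXIST9. Normoxia and hypoxia did not overlap in any clone, and the log2 fold change was 1.35, 1.95 and 1.40 (adjusted p = 0.00019, 2.6e-06 and 9.2e-05).

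ABCA10, whose substrate is not settled, had 7, 5 and 3 counts in sgCtl in normoxia and 31, 47 and 13 in hypoxia. It had 3, 4 and 1 against 31, 51 and 29 in sgXIST7, and 3, 0 and 7 against 33, 47 and 20 in sgXIST9. The CPM values did not overlap between normoxia and hypoxia in any clone. Group means were 1.63 to 2.10 CPM in hypoxia and 0.132 to 0.343 CPM in normoxia. ABCA10 passed the filter on low counts only through the hypoxia groups, in which it was high. In sgCtl, sgXIST7 and sgXIST9 the log2 fold change was 2.43 (SE 0.57, adjusted p = 0.0019), 3.97 (SE 0.62, adjusted p = 3.4e-05) and 3.19 (SE 0.60, adjusted p = 0.00026). Without sgCtl replicate 3 in normoxia the first was 2.07 with adjusted p = 0.015, and without sgXIST9 replicate 3 in normoxia the last was 4.38. The next genes of the cluster, ABCA6 and ABCA9, were too low to be tested. ABCA6 had 0 counts in the 6 normoxia libraries of the KD clones and 4, 8 and 11 in sgXIST7 and 4, 7 and 3 in sgXIST9 in hypoxia, and in sgCtl it had 2, 1 and 2 against 7, 21 and 0. ABCA9 had 0 counts in each normoxia library, and in hypoxia 1, 14 and 1 in sgCtl, 1, 2 and 0 in sgXIST7 and 1, 4 and 1 in sgXIST9.

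ABCC11, which sets the type of earwax and exports lipophilic anions, had 13, 16 and 20 counts in sgCtl in normoxia and 48, 95 and 31 in hypoxia. It had 13, 13 and 14 against 56, 79 and 30 in sgXIST7, and 14, 13 and 10 against 52, 68 and 42 in sgXIST9. Each hypoxia library was above its normoxia group, by 1.69 in sgCtl, 2.23 in sgXIST7 and 2.08 in sgXIST9 on the log2 scale (adjusted p = 5.4e-05, 2.4e-06 and 7e-06). Its neighbour ABCC12, 19002 bases away, had at most 6 counts.

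**Figure D4:**
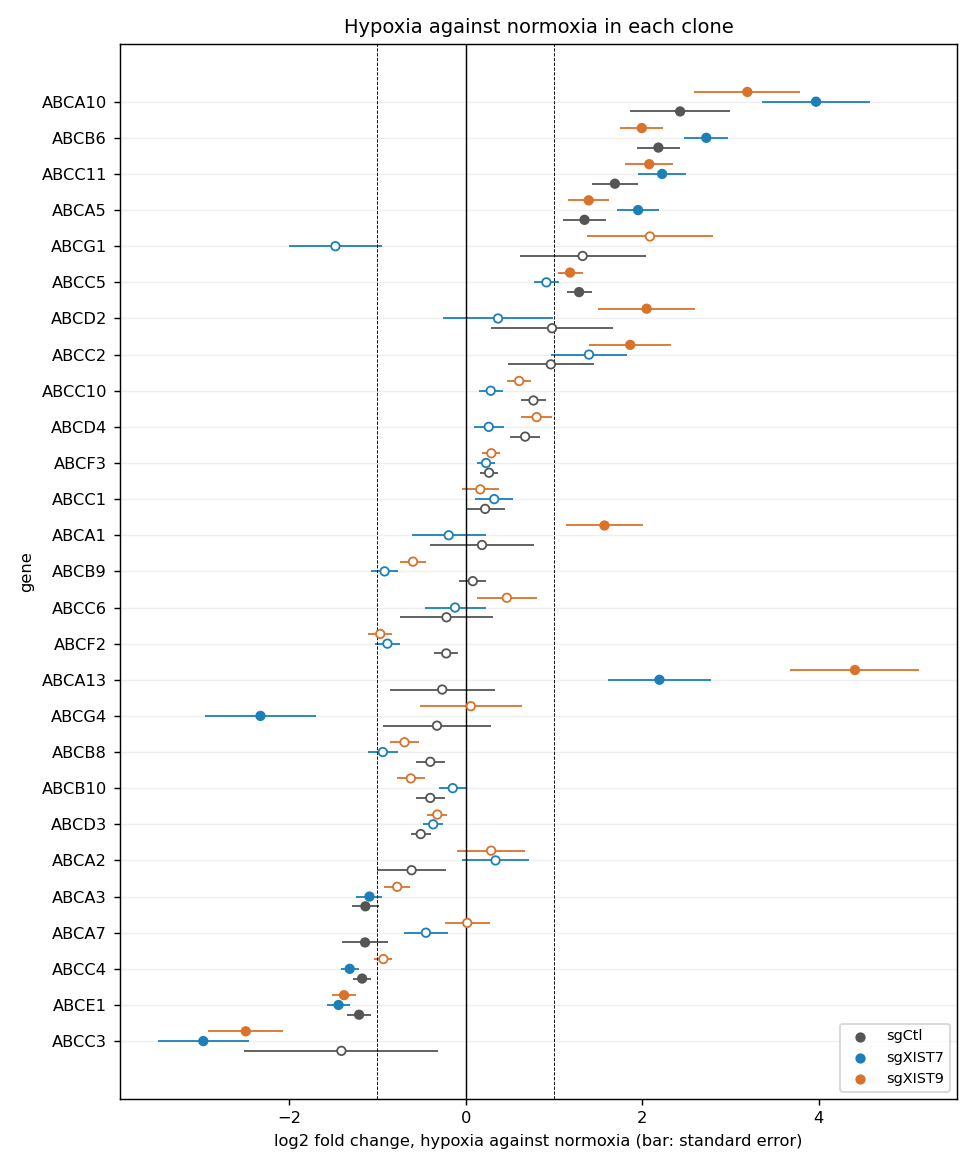
Log2 fold change of hypoxia against normoxia for 27 of the 29 tested ABC genes in sgCtl, sgXIST7 and sgXIST9, with the standard error as a bar. Filled symbols passed both limits (adjusted p under 0.01, and log2 beyond the dashed lines at 1 and -1). ABCA10, ABCB6, ABCC11 and ABCA5 are filled at the right in each clone, and ABCE1 is filled at the left in each clone.

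ABCC5, an exporter of cyclic nucleotides and nucleotide analogues, rose in sgCtl and sgXIST9. It was at 29.3, 32.7 and 28.4 CPM in normoxia and 78.3, 79.9 and 62.1 CPM in hypoxia in sgCtl, at 20.8, 30.7 and 23.8 against 46.8, 48.2 and 46.7 CPM in sgXIST7, and at 18.3, 20.7 and 23.2 against 46.8, 51.0 and 43.4 CPM in sgXIST9. Hypoxia gave log2 fold changes of 1.29 (adjusted p = 1.4e-06), 0.92 (adjusted p = 3e-05, below the fold limit) and 1.18 (adjusted p = 2.7e-06). The hypoxia libraries lay above the normoxia libraries in each clone.

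ABCA13 rose in the KD clones. Its hypoxia counts were 3, 17 and 15 in sgCtl, 44, 41 and 11 in sgXIST7 and 51, 65 and 8 in sgXIST9, beside 13, 14 and 14, 6, 7 and 10, and 2, 2 and 1 in normoxia. The sgCtl groups overlapped and those of the KD clones did not. Its log2 fold change was 2.20 in sgXIST7 (SE 0.59, adjusted p = 0.004) and 4.41 in sgXIST9 (SE 0.73, adjusted p = 7.8e-05), where the ratio of summed counts was 24.2 (95% counting interval 10.1 to 75.8). In sgCtl it was -0.27 (adjusted p = 0.74). The call in sgXIST7 was lost without any 1 of the normoxia replicates or of hypoxia replicates 1 and 2 (adjusted p 0.011 to 0.022).

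ABCA1, ABCC2 and ABCD2 rose in sgXIST9. ABCA1 gave a log2 fold change of 1.57 (adjusted p = 0.0059), where sgCtl gave 0.19 and sgXIST7 gave -0.19. ABCC2, the canalicular anion exporter, had 8, 7 and 11 counts in normoxia and 35, 41 and 24 in hypoxia in sgXIST9, with a log2 fold change of 1.87 (SE 0.46, adjusted p = 0.0026). It had 7, 9 and 9 against 26, 24 and 4 in sgCtl and 20, 16 and 8 against 44, 50 and 12 in sgXIST7, with log2 values of 0.97 (adjusted p = 0.11) and 1.40 (adjusted p = 0.011), which were 1.33 (adjusted p = 0.0089) and 1.66 (adjusted p = 0.00052) without the hypoxia replicate 3 libraries. The value of sgXIST7 was also called by DESeq2 (1.42, adjusted p = 0.0066) and with the replicate block (1.38, adjusted p = 0.006). For ABCD2 the log2 fold change was 2.05 (SE 0.55, adjusted p = 0.0043), and replicate 3 in hypoxia lay within the range of normoxia. Each of these 3 calls was lost on leaving out single sgXIST9 libraries: for ABCA1 any normoxia library or hypoxia replicate 1 or 2 (1.34 to 1.76, adjusted p 0.012 to 0.033), for ABCC2 normoxia replicate 1 or 2 (1.70 and 1.74, adjusted p 0.017 and 0.015), and for ABCD2 any normoxia library or hypoxia replicate 1 or 2 (1.61 to 2.17, adjusted p 0.014 to 0.028).

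ABCG1 passed in no clone in hypoxia against normoxia by edgeR, with log2 values of 1.33 in sgCtl (adjusted p = 0.13), -1.48 in sgXIST7 (adjusted p = 0.024) and 2.09 in sgXIST9 (adjusted p = 0.02). DESeq2 called it in sgXIST9 (2.07, adjusted p = 0.0072), and edgeR with the replicate block in sgXIST7 (-1.54, adjusted p = 0.0097). Without the hypoxia replicate 3 libraries it was called in each clone, as higher in sgCtl (1.82, adjusted p = 0.0012) and sgXIST9 (2.45, adjusted p = 8e-05) and as lower in sgXIST7 (-1.26, adjusted p = 0.0016).

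The most abundant member fell in each clone. ABCE1 was at 291, 266.5 and 310.1 CPM in sgCtl, 333, 234 and 309.6 CPM in sgXIST7 and 330.4, 325 and 318 CPM in sgXIST9 in normoxia. In hypoxia it was at 118, 116 and 142 CPM, 126, 100.4 and 96.3 CPM, and 129, 117 and 128 CPM. All 9 hypoxia libraries lay below all 9 normoxia libraries. In sgCtl, sgXIST7 and sgXIST9 the log2 fold change was -1.21 (SE 0.13, adjusted p = 1.6e-06), -1.44 (adjusted p = 1.3e-07) and -1.38 (adjusted p = 2.7e-07). The other ribosome-associated members, ABCF2 and ABCF3, did not pass in any clone. ABCF2 gave -0.22, -0.89 and -0.97 and ABCF3 0.27, 0.23 and 0.29 in sgCtl, sgXIST7 and sgXIST9.

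ABCC4, an exporter of cyclic nucleotides and prostaglandins, was at 37.7, 38.8 and 36.5 CPM in sgCtl in normoxia and 15.5, 18.5 and 16.04 CPM in hypoxia. It was at 43.5, 38.1 and 42.7 against 17.1, 16.5 and 16.5 CPM in sgXIST7 and 43.5, 41.0 and 40.8 against 22.9, 22.9 and 19.8 CPM in sgXIST9. The groups did not overlap, and the log2 fold change was -1.17 (adjusted p = 1.3e-07), -1.31 (adjusted p = 1.6e-08) and -0.93 (adjusted p = 8.6e-07, below the fold limit). ABCA3 was at 92.9, 104 and 98.3 CPM in sgCtl, 99.1, 149 and 122 CPM in sgXIST7 and 106, 115 and 102 CPM in sgXIST9 in normoxia. In hypoxia it was at 38.2, 43.1 and 53.4, 58.9, 49.7 and 65.7, and 58.8, 65.7 and 64.7 CPM. Its hypoxia libraries were all below its normoxia libraries, with log2 fold changes of -1.14 (adjusted p = 9.4e-06), -1.09 (adjusted p = 7.7e-06) and -0.78 (adjusted p = 0.00027, below the fold limit). Without replicate 2 in normoxia or hypoxia the value of sgXIST7 was -0.94 or -0.98.

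ABCC3 fell in both KD clones, where it was detected in normoxia. Its counts were 24, 16 and 19 against 1, 3 and 2 in sgXIST7 and 32, 35 and 23 against 4, 7 and 5 in sgXIST9. In sgXIST7 the summed counts were 8.38 times lower in hypoxia (95% counting interval 3.63 to 23.7). On the log2 scale ABCC3 fell by 2.97 in sgXIST7 and 2.49 in sgXIST9, both with an adjusted p of 0.0001. In sgCtl there were 3 counts in normoxia and 1 in hypoxia, and no fold is given there.

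ABCA7, a phospholipid transporter related to ABCA1, fell in sgCtl, from 64.4, 73.2 and 52.3 CPM to 22.6, 23.3 and 40.8 CPM (log2 -1.14, adjusted p = 0.0016). It was at 53.6, 94.9 and 49.2 CPM against 40.5, 45.4 and 59.0 CPM in sgXIST7 and 43.5, 51.1 and 36.8 CPM against 37.2, 48.9 and 47.0 CPM in sgXIST9, and both of those pairs of groups overlapped. Without sgCtl replicate 1 or 2 in hypoxia the fall had an adjusted p of 0.012 or 0.01. ABCG4, a sterol exporter close to ABCG1, fell in sgXIST7, from 33, 41 and 19 counts to 10, 3 and 3 (log2 -2.32, SE 0.63, adjusted p = 0.0043). Its counts were 12, 15 and 11 against 15, 18 and 1 in sgCtl and 14, 21 and 7 against 15, 25 and 6 in sgXIST9. Leaving out sgXIST7 replicate 2 in normoxia, or replicate 2 or 3 in hypoxia, raised its adjusted p to 0.023, 0.032 and 0.015, and without replicate 1 in hypoxia the value was -2.98.

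**Figure D5:**
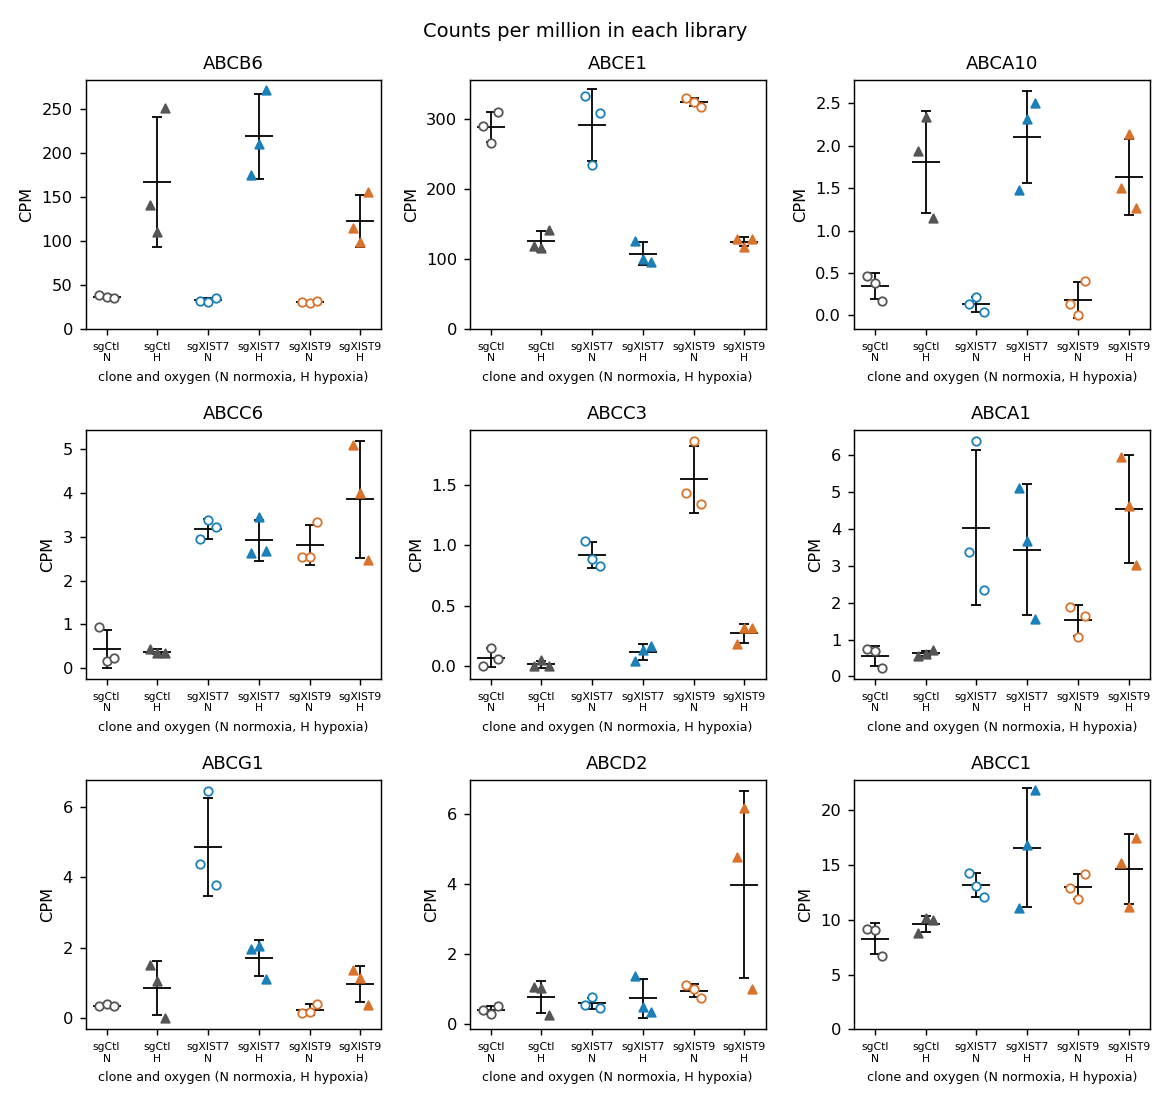
CPM of 9 ABC genes in each of the 18 libraries by clone and oxygen (N normoxia, H hypoxia), with the mean and SD of 3 libraries as bars and an axis of its own for each gene. ABCB6 and ABCA10 are higher and ABCE1 is lower in hypoxia in each clone, while ABCC6 is higher in both KD clones at both oxygen levels. ABCD2 in sgXIST9 in hypoxia spans 1.01 to 6.17 CPM.

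The response to hypoxia was then compared between clones by the interaction term. No member passed in sgXIST7 or in sgXIST9 against sgCtl by edgeR (beside 1.52% and 1.01% of all genes, of which 0.904% and 0.663% were higher and 0.616% and 0.348% lower), although 7 and 4 members had an unadjusted p under 0.05. DESeq2 called 1 in each, ABCB9 in sgXIST7 (log2 -1.01) and ABCA13 in sgXIST9 (log2 4.70), where edgeR gave -0.9999 (adjusted p = 0.01) and 4.68 (adjusted p = 0.011). ABCB9, the lysosomal peptide transporter, was at 12.2 ± 0.240 CPM in normoxia and 12.8 ± 3.03 in hypoxia in sgCtl, and at 17.1 ± 0.996 and 9.05 ± 1.02 in sgXIST7 (SD, n = 3). Without the hypoxia replicate 3 libraries, edgeR called ABCG1 (-3.08), ABCB9 (-1.13) and ABCA13 (3.20) in sgXIST7 and ABCA13 (5.60) in sgXIST9. A call in 1 clone and not in another, as for ABCA7, ABCG4 or ABCC5, is therefore not shown to be a difference between clones.

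In all, 8 tested members passed in none of the 11 comparisons by edgeR, ABCC1 among them. The mitochondrial ABCB10 ranged from -0.62 to 0.52 on the log2 scale, and ABCB9 from -0.9999 to 0.69. The peroxisomal ABCD3 ranged from -0.51 to 0.29, the lysosomal ABCD4 from -0.41 to 0.80 (hypoxia in sgXIST9, adjusted p = 0.00081), ABCC10 from -0.48 to 0.77 (hypoxia in sgCtl, adjusted p = 0.00022) and ABCF3 from -0.06 to 0.29.

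Other genes of transport and its control were taken from lists of related function. Of 3 ABC transporters with other symbols, the chloride channel CFTR had at most 1 count, and the peptide transporters TAP1 and TAP2 were tested. TAP2 fell in hypoxia in sgXIST7 (log2 -2.91, adjusted p = 0.0069), from 215, 36 and 31 counts to 20, 3 and 7, and both genes are listed on 7 alternate contigs. Of 12 sterol genes tested, 4 were up-regulated in sgXIST7 and 1 in sgXIST9 in normoxia (33.3% and 8.33%, against 4.67% and 3.93% of all genes). In hypoxia 1 was up and 1 down in sgXIST7 (16.7%, against 14.0% of all genes). In sgXIST9 in hypoxia edgeR called 0, against 9.53% of all genes, with 7 at an unadjusted p under 0.05. The genes up-regulated in sgXIST7 in normoxia included the sterol regulators SREBF1 (1.25) and SREBF2 (1.42) and the sterol carrier STARD4 (1.40). The median of the 12 was 0.76 in sgXIST7 and 0.54 in sgXIST9, beside -0.01 and -0.02 over all genes. The liver X receptors NR1H2 and NR1H3, which drive ABCA1 and ABCG1, did not pass in any comparison. In hypoxia SREBF2 and STARD4 rose in each of the 3 clones (log2 1.11 to 1.20 and 1.10 to 1.93). Hypoxia against normoxia called 3, 2 and 2 of the 12 in sgCtl, sgXIST7 and sgXIST9. These shares were 25.0%, 16.7% and 16.7%, against 19.7%, 27.3% and 23.3% of all genes.

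Of 9 tested xenobiotic regulators, 1 passed in sgXIST7 and 3 in sgXIST9 in normoxia (11.1% and 33.3%, against 7.76% and 7.70% of all genes), and 1 and 2 in hypoxia (11.1% and 22.2%, against 14.0% and 9.53%). AHR, the aryl hydrocarbon receptor, was down-regulated in both clones at both oxygen levels. In normoxia it had 213, 189 and 255 counts in sgCtl, 28, 30 and 36 in sgXIST7 (log2 -3.29) and 0, 3 and 0 in sgXIST9. PPARG was up-regulated in sgXIST9 (2.57 in normoxia and 1.97 in hypoxia), and NFE2L2 was down-regulated in sgXIST9 in normoxia (-1.15). None of 11 tested glutathione genes passed in either clone in normoxia by edgeR, against 7.76% and 7.70% of all genes. Of the 11, 6 and 3 had an unadjusted p under 0.05 in sgXIST7 and sgXIST9. In hypoxia GCLC, which makes the rate-limiting enzyme of glutathione synthesis, rose in sgXIST7 (2.29) and sgXIST9 (1.08). Hypoxia against normoxia called 1 of the 11 in each clone, which in sgCtl was GSTA4. This was 9.09%, against 19.7%, 27.3% and 23.3% of all genes in sgCtl, sgXIST7 and sgXIST9.

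Of 12 other drug transporters tested, 4 passed in sgXIST7 (3 up and 1 down) and 2 in sgXIST9 (1 up and 1 down) in normoxia (33.3% and 16.7%, against 7.76% and 7.70% of all genes), with medians of -0.02 and 0.14. In hypoxia 5 and 3 passed (41.7% and 25.0%, against 14.0% and 9.53%). The organic anion transporter SLCO4A1 was up-regulated in both clones at both oxygen levels (log2 1.37 and 1.45 in normoxia, 2.34 and 1.79 in hypoxia). SLCO3A1 was down-regulated in each of these 4 comparisons, but it passed the filter on low counts only through sgCtl, where it was high. Its counts in normoxia were 16, 19 and 16 in sgCtl, 1, 1 and 2 in sgXIST7 and 0, 0 and 0 in sgXIST9. SLCO2A1, the prostaglandin transporter, was up-regulated in sgXIST7 at both oxygen levels, with 0, 1 and 3 counts in sgCtl and 61, 183 and 97 in sgXIST7 in normoxia. The copper pump ATP7A rose in hypoxia in each clone (1.13, 2.50 and 1.56). Hypoxia against normoxia called 2, 4 and 3 of the 12 drug transporters in sgCtl, sgXIST7 and sgXIST9. Their shares were 16.7%, 33.3% and 25.0%, against 19.7%, 27.3% and 23.3% of all genes. Among 14 tested partner genes of ABC proteins, the scaffold PDZK1, which binds ABCC2 and other apical transporters, was up-regulated in both clones (4.28 and 6.21 in normoxia, 5.07 and 5.88 in hypoxia). It was the only partner gene called against sgCtl in normoxia (7.14% in each clone, against 7.76% and 7.70% of all genes). In hypoxia 2 partner genes passed in sgXIST7 and 1 in sgXIST9 (14.3% and 7.14%, against 14.0% and 9.53%). PELO, which works with ABCE1 in ribosome rescue, rose in hypoxia in sgXIST7 (1.15), where ABCE1 fell. MMACHC, a partner of ABCD4 in vitamin B12 export from lysosomes, fell in hypoxia in both KD clones (-1.63 and -1.12). LMBRD1, another of the partner genes, rose in hypoxia in both KD clones (1.09 and 1.40). Between hypoxia and normoxia, edgeR called 0, 5 and 2 of the 14 partner genes in sgCtl, sgXIST7 and sgXIST9. In sgCtl 9 of them had an unadjusted p under 0.05. The shares called were 0.0%, 35.7% and 14.3%, against 19.7%, 27.3% and 23.3% of all genes. ABCD4 gave log2 values of 0.67, 0.26 and 0.80 in sgCtl, sgXIST7 and sgXIST9 and did not pass.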

How the data were processed

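RNA of 18 libraries of OVCAR3-KRAB clonal cells was depleted of rRNA and made into stranded libraries. The authors trimmed paired-end reads (Trimmomatic) and checked their quality (FastQC), took HISAT2 for alignment to hg38 and featureCounts for the reads of each gene. The deposited values are raw counts, 1 column per library, without normalisation. Tool versions, the strand setting and the treatment of reads with several alignments are not given in the sources used here. The table also gives a length per gene, summed over every contig on which the gene is listed. Of 28279 lines, 2 broken lines with 0 counts were left out.

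Counts were analysed with edgeR 4.0.16 (limma 3.58.1, R 4.3.3) in a single fit of 6 groups, with TMM factors (0.859 to 1.115), filterByExpr (minimum count 10, minimum total 15), robust glmQLFit, glmQLFTest, a prior count of 0.125 and Benjamini-Hochberg adjustment over 14938 genes. Calls needed a log2 fold change beyond 1 in either direction at an adjusted p under 0.01. RPKM used exon length on the main chromosomes, since the table's length counts a gene again on each alternate contig. Counting intervals are 95% exact intervals on summed counts. Detection in a group needed more than 3 counts in at least 1 of its libraries. The filterByExpr step keeps a gene with enough counts in 3 libraries. A low gene such as ABCC3, ABCC6, ABCA10, SLCO3A1, COL1A1 or DCN was thus tested only through the groups in which it was high. The scripts were tested on simulated data. The alternatives were the DESeq2 1.42.0 Wald test, median-of-ratios scaling, no filter on low counts, an adjusted p under 0.05, the replicate number as a block, each library left out in turn and, chosen after seeing the data, the replicate 3 libraries of hypoxia left out together. Values per library were given for members called in any comparison and for ABCB1, ABCC1 and ABCG2, and levels from among the 10 members with the highest mean RPKM, and genes of the other lists are named mainly where called. The members and lists were chosen with earlier results of these data known. Exon windows of 50 bases were counted over 455 sequences of the reference, 261 of them alternate contigs. Replicate libraries of a group differed by more than counting noise in each pair. Same-numbered libraries deviated together by the limit used (each of 3 correlations over 0.1) between sgCtl and sgXIST7 in normoxia (0.148 to 0.379) and between sgCtl and sgXIST9 in hypoxia (0.197 to 0.566). None of the other 13 pairs of groups met this limit, and the fit with the replicate block changed no call in either comparison. In hypoxia the replicate 3 libraries also deviated together between sgCtl and sgXIST7 (0.380) and between sgXIST7 and sgXIST9 (0.492), where replicate 2 did not (0.0182 and -0.0676). Values of some genes are not reported here.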

Additional observations from a re-analysis of the deposited data

Results flagged for a closer look

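Differences between the KD clones themselves passed the edgeR test for 4 results, where sgXIST7 and sgXIST9 differ in their effect against the same control. ABCG1 was higher in sgXIST7 than in sgXIST9 in normoxia (log2 4.38), with 101, 116 and 87 counts against 3, 3 and 7. ABCF2 was lower in sgXIST7 in normoxia (-1.33) and in hypoxia (-1.25), beside a median of -0.93 and -1.07 over 136 genes of the same end of chromosome 7. ABCD2 was lower in sgXIST7 in hypoxia (-2.37), with overlapping groups and a low replicate 3 in sgXIST9.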

How the results depend on the processing

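Of 53 calls (a member in a comparison), median-of-ratios scaling and the replicate block lost 0. DESeq2 and the hypoxia libraries without replicate 3 lost 1 each (ABCC3 in sgXIST9 in hypoxia, adjusted p = 0.025 and 0.028). No filter lost 1 (ABCA2 in sgXIST7 in hypoxia, adjusted p = 0.016). An adjusted p under 0.05 only widens the limit on the same fit, so it could lose no call. Leaving out 1 library lost 15 calls at least once and 38 were kept without each library. The block gave 12 members in sgXIST7 in hypoxia against normoxia in place of 10, adding ABCG1 (-1.54) and ABCC2 (1.38). It changed no other call. Replicate numbers paired the libraries by the limit used (each of 3 correlations over 0.1) in 2 of 15 pairs of groups. The replicate 3 libraries deviated together between all pairs of hypoxia groups. Without 1 library, the members called ranged from 4 to 5 and 2 to 3 in normoxia and 4 to 6 and 2 to 4 in hypoxia (sgXIST7 and sgXIST9 against sgCtl), from 2 to 2 and 1 to 3 between the clones, from 9 to 13, 8 to 13 and 9 to 14 in hypoxia against normoxia, and from 0 to 2 in both interactions. The interaction of sgXIST7 called 1 member with DESeq2 and 1 with median-of-ratios scaling (ABCB9) and 3 without the hypoxia replicate 3 libraries. That of sgXIST9 called 1 (ABCA13) with DESeq2, at an adjusted p under 0.05, with no filter and without those libraries. ABCC1 turned sign where it was near 0. Without 1 library it ranged from -0.0474 to 0.0822 in normoxia and -0.0578 to 0.4031 in hypoxia between the clones (0.02 and 0.18 with all), from -0.1306 to 0.3292 in the interaction of sgXIST7 (0.10 with all) and from -0.2008 to 0.1021 in that of sgXIST9 (-0.06 with all). Without the hypoxia replicate 3 libraries the interaction of sgXIST7 was -0.1036. The cause was not tested.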

Other observations

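ABCF1, a translation factor of subfamily F, had 49 counts in the 18 libraries, 32 of them in replicate 2 of sgXIST9 in normoxia. None of its 50-base exon windows occurs once in the genome with alternate contigs, while 100% do on the main chromosomes. On chromosome 6, the 161 genes listed on 6 or more alternate contigs had a median of 2 counts summed over the libraries, and the 1180 genes listed on none had a median of 308.5. The part of the alternate contigs in the count of ABCF1 was not tested.

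Among pseudogenes left out of the members, ABCA17P had 15, 10 and 18 counts in sgCtl in normoxia and 42, 37 and 37 in hypoxia, and in sgXIST7 24, 20 and 32 against 88, 118 and 59. ABCA11P had 221, 229 and 255 counts in sgCtl in normoxia and 118, 150 and 120 in hypoxia.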
